A study of Homo sapiens with 8 samples.

Results

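MOLT-4, an established human line of T-cell acute lymphoblastic leukaemia (T-ALL), was exposed for 8 h to 100 nM ACBI-1, or to DMSO, and profiled by RNA sequencing. The comparison uses the 4 MOLT-4 libraries of the 8 in the series, 2 for each treatment, and all genes that were counted often enough to be tested, 14239 of 63677 identifiers. The other 4 libraries are from DND-41, a second T-ALL line given the same treatments for the same time, and enter only where the responses of the lines were compared. The labels name no other drug or genetic change in any group, and they do not say that replicates came from separate cultures, so each p-value measures the spread between libraries, which may be technical. ACBI-1 is a bifunctional degrader: one end binds bromodomains, those of PBRM1 and of the ATPases SMARCA2 and SMARCA4, and the other binds the VHL ubiquitin ligase. The question addressed is which transcripts differ in MOLT-4 within 8 h of exposure.

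SMARCA2 and SMARCA4 are the ATPase motors of BAF (SWI/SNF) complexes, which use ATP to slide or evict nucleosomes and so keep enhancers and promoters open to transcription factors. PBRM1 belongs to a form of the complex called PBAF. In T-ALL, enhancers driven by NOTCH1, RUNX1, MYB, GATA3 and TAL1 hold up the expression of a developing T cell, and these enhancers are among the places where BAF complexes act. Because the assay reads RNA, loss of the targeted proteins is not seen in these data.

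Levels are CPM, counts scaled to the effective size of each library, given for each library with replicate 1 first. Each log2 fold change is ACBI-1 over DMSO and is followed by its standard error (2 libraries against 2). The MOLT-4 libraries held between 20135437 and 20239888 counts, so 3 counts are about 0.149 CPM. Replicate libraries correlated at 0.995 (DMSO) and 0.996 (ACBI-1) in log2 CPM across genes, against 0.972 to 0.975 between treatments. A gene was called when its adjusted p from the edgeR quasi-likelihood test, corrected over all 14239 genes, was below 0.05.

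The T-lineage identity of the libraries was clear from CD3E (1331, 1175, 1205 and 1194 CPM in the order DMSO 1, DMSO 2, ACBI-1 1 and ACBI-1 2), TCF7 and LCK. Most markers of other cells were below 1 CPM in every library, 9 of 14 B-lineage, 15 of 17 myeloid, 17 of 19 erythroid or megakaryocyte and 11 of 13 natural killer markers. The stromal and epithelial markers differed: 7 of 14 were below 1 CPM everywhere, and the collagen gene COL1A1 stood at 2.08 and 52.4 CPM with DMSO and 0 and 10.7 CPM with ACBI-1. FN1, which encodes fibronectin and was looked up after its values were seen, was at 2.98 and 144 CPM with DMSO and 1.15 and 28.7 CPM with ACBI-1. Both genes were far higher in the replicate 2 libraries than in the replicate 1 libraries of the same treatment. Without DMSO replicate 2 the fold change of FN1 turned from −2.32 ± 0.85 to 2.32, and that of COL1A1 from −2.38 ± 0.82 to 1.35. In all, 10 genes were at 5 CPM or more in DMSO replicate 2 and at least 4 times their level in DMSO replicate 1, none showed the reverse, and all 10 were also higher in ACBI-1 replicate 2 than in replicate 1. The summed level of the stromal and epithelial markers was 325 and 400.0 CPM with DMSO and 182 and 186 CPM with ACBI-1, mostly VIM, while EPCAM was at 0 in every library. The myeloid markers summed to 145 and 151 CPM with DMSO and 101 and 108 CPM with ACBI-1, mostly AIF1, and the natural killer markers to 11.4 and 12.4 CPM and to 4.60 and 4.82 CPM, mostly EOMES. The erythroid and megakaryocyte markers summed to between 12.2 and 14.8 CPM in every library. Mitochondrially encoded genes took 19.0% and 14.4% of the counts with DMSO and 21.3% and 24.6% with ACBI-1. What part these library differences play in other results was not tested, and counts without single libraries are given where they matter.

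The transcripts of the proteins that ACBI-1 degrades moved little. SMARCA4 was at 658 and 692 CPM with DMSO and 772 and 771 CPM with ACBI-1 (log2 fold change 0.19 ± 0.06, adjusted p = 0.0187). This call was lost when either ACBI-1 library was left out, with adjusted p-values of 0.0575 (first replicate) and 0.0663 (second), and with library size alone SMARCA4 was at 0.11 with an adjusted p of 0.398. SMARCA2 was at 23.1 and 24.9 CPM with DMSO and 25.8 and 27.1 CPM with ACBI-1 and was not called, and PBRM1 was at 167 and 169.5 CPM with DMSO and 159 and 142 CPM with ACBI-1. The PBRM1 difference, −0.16 ± 0.06, was not called when a replicate 2 library was left out, at −0.08 without that of ACBI-1 (adjusted p of 0.461) and −0.14 without that of DMSO (adjusted p of 0.0605). All 3 fold changes were small beside the responses described next.

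In all, 2948 genes rose and 3477 fell, 20.7% and 24.4% of those tested. Most rises were small. Of the rises, 281 were 2-fold or more (1.97% of genes tested) and 32 were 4-fold or more. Of the falls, 1200 were 2-fold or more (8.43%) and 369 were 4-fold or more. Among changes below 0.5 on the log2 scale the balance was the other way, with 1948 rises and 1359 falls. With library size alone as the scale, 31.2% of calls were rises in place of 45.9%, so the balance of small changes depends on the scaling, whereas falls of 2-fold or more outnumbered such rises under every scaling tried (1352 against 229 with library size alone). The median log2 fold change over all genes was 0.00. The authors' deposited table for MOLT-4 holds the comparison in the opposite direction: of 4035 genes with an adjusted p below 0.05 there, 4012 were called here, and all 4012 had the opposite sign.

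**Figure D1:**
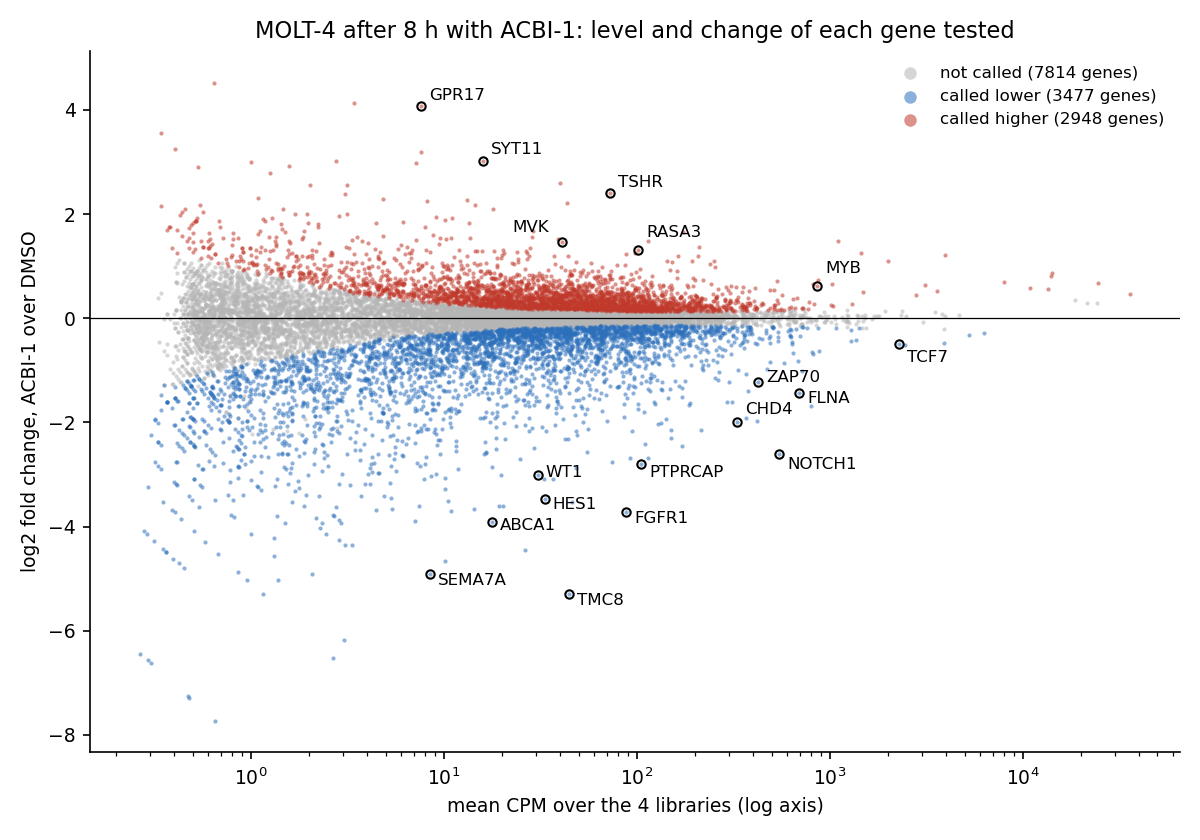
Mean CPM over the 4 MOLT-4 libraries (log axis) against the log2 fold change of ACBI-1 over DMSO for each of the 14239 genes tested, coloured by the edgeR call. Large changes are mostly falls: 369 genes fell and 32 rose by 4-fold or more, and NOTCH1, CHD4 and FLNA are falls among abundant transcripts.

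GPR17, an orphan G protein-coupled receptor of oligodendrocyte precursors, went from 1.09 and 0.612 CPM to 15.1 and 13.6 CPM (log2 fold change 4.08 ± 0.19, adjusted p = 1.6e-12). It was the largest rise among called genes whose mean level reached 5 CPM and whose groups did not overlap. Clone, LOC, LINC, antisense, small RNA and pseudogene names were left out of this ranking. TRIB1, a pseudokinase scaffold of the COP1 ubiquitin ligase, rose from 1.04 and 1.93 CPM to 12.5 and 15.1 CPM (3.20 ± 0.19). The synaptic vesicle gene SYT11 rose from 3.62 and 3.34 CPM to 27.7 and 29.1 CPM (3.03 ± 0.11). BSN, which encodes the presynaptic scaffold bassoon, rose from 10.4 and 12.1 CPM to 69.2 and 67.4 CPM (2.60 ± 0.08). In each of these genes both treated libraries lay above both controls, which the choice of genes required.

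TSHR, the thyrotropin receptor, had the highest mean CPM of the 15 largest rises. It stood at 21.7 and 24.5 CPM with DMSO and 123 and 121 CPM with ACBI-1 (log2 fold change 2.40 ± 0.07, adjusted p = 9.32e-16). Genes of the actin and adhesion machinery were also in this group: PTK2, the focal adhesion kinase, at 1.44 and 1.79 CPM with DMSO and 13.5 and 12.1 CPM with ACBI-1 (2.98 ± 0.16), and CTTN, the actin-branch stabiliser cortactin, at 3.18 and 4.33 CPM with DMSO and 15.1 and 13.7 CPM with ACBI-1 (1.94 ± 0.14). The reelin adaptor DAB1 rose by 2.26 ± 0.14, the zinc-finger gene ZNF341 by 2.21 ± 0.08, the O-glycan branching enzyme GCNT1 by 2.17 ± 0.11 and the retinaldehyde reductase DHRS3 by 1.93 ± 0.12 on the log2 scale. LZTS3, LRRC16B, EPN2 and DISP2 completed the set, between 1.85 and 2.25. Genes that crossed from low to higher levels were sought with clone, LOC, LINC, antisense, small RNA and pseudogene names left out. None went from 1 CPM or less in both DMSO libraries to 5 CPM or more in both ACBI-1 libraries.

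The falls given first are the 15 largest among called genes whose mean level reached 5 CPM. Clone, LOC, LINC, antisense, small RNA and pseudogene names were left out here too. TMC8 and TMC6, adjacent genes for transmembrane channel-like proteins of lymphocytes, fell together. TMC8 was at 82 and 91 CPM with DMSO and 1.85 and 2.54 CPM with ACBI-1 (log2 fold change −5.30 ± 0.12, adjusted p = 6.2e-17), and TMC6 was at 46.3 and 54.8 CPM with DMSO and 1.95 and 2.7 CPM with ACBI-1 (log2 fold change −4.44 ± 0.13, adjusted p = 1.71e-15). SEMA7A, a membrane-anchored semaphorin, fell from 15.1 and 17.5 CPM to 0.55 and 0.519 CPM (−4.92 ± 0.19). FGFR1, a fibroblast growth factor receptor, went from 165 and 162 CPM to 13 and 11.8 CPM (log2 fold change −3.72 ± 0.07, adjusted p = 6.69e-18), and FGFRL1, a receptor of the same family without a kinase domain, fell from 19.5 and 19.3 CPM to 0.65 and 0.882 CPM (−4.66 ± 0.17). Both control libraries of each gene lay far above both treated libraries, and the choice of genes required groups that do not overlap.

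ABCA1, the transporter that exports cholesterol from cells, went from 31.6 and 35.3 CPM to 2.5 and 1.92 CPM (−3.91 ± 0.13). PDCD1, which encodes the checkpoint receptor PD-1, went from 11.8 and 14.8 CPM to 0.95 and 0.83 CPM (−3.89 ± 0.20). The transcription factor genes PRDM16 and ELF4 fell from 19.7 and 20.9 CPM to 1.65 and 1.45 CPM (−3.70 ± 0.14) and from 39.1 and 35.7 CPM to 3 and 3.11 CPM (−3.61 ± 0.11). CCR9, a chemokine receptor that guides thymocytes, fell from 81.1 and 88.4 CPM to 7.8 and 6.9 CPM (−3.53 ± 0.09). The rest of these 15 falls were RAB37, NOTCH3, DTX1, TOX2 and the neurofilament gene INA, between −3.66 and −3.50. Genes crossing the other way were counted with clone, LOC, LINC, antisense, small RNA and pseudogene names left out. In all, 11 went from 5 CPM or more in both DMSO libraries to 1 CPM or less in both ACBI-1 libraries. They included SEMA7A, FGFRL1, PDCD1, ZBTB16, HYLS1, the integrin activator FERMT2 at 7.89 and 8.61 CPM with DMSO and 0.65 and 0.622 CPM with ACBI-1, CREB3L3 at 6.9 and 5.83 CPM with DMSO and 0.35 and 0.259 CPM with ACBI-1, and APOBR, a lipoprotein receptor, at 5.51 and 6.49 CPM with DMSO and 0.05 and 0.104 CPM with ACBI-1. For APOBR the treated levels are no more than 3 counts a library, so no fold is given.

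**Figure D2:**
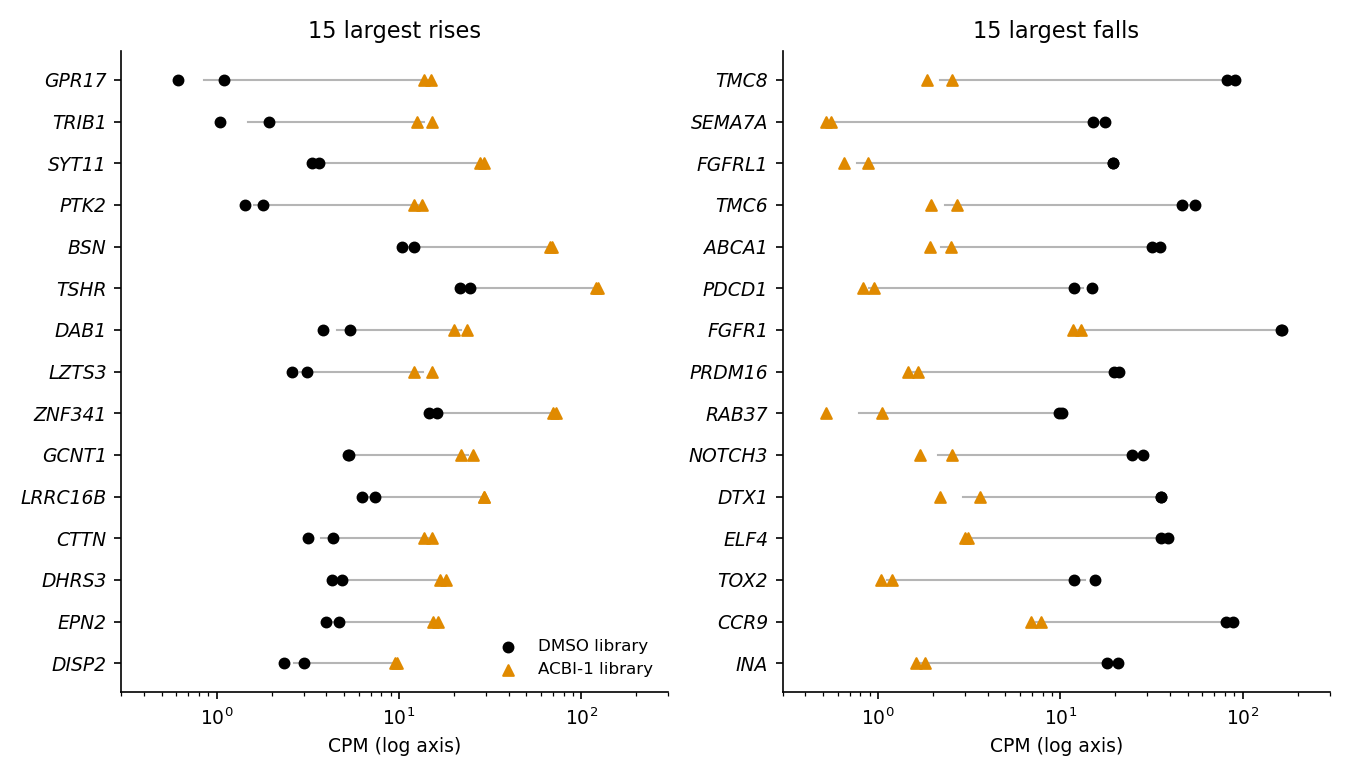
CPM (log axis) in each MOLT-4 library for the 15 largest rises (left) and the 15 largest falls (right) among called genes whose mean level reached 5 CPM, with circles for DMSO, triangles for ACBI-1 and a line joining the group means. Clone, LOC, LINC, antisense, small RNA and pseudogene names were left out of the choice. No gene shown has overlapping groups, which the choice of these genes required, and TMC8 moves from 82.0 and 91.0 to 1.85 and 2.54 CPM.

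Some called falls were large as a difference in CPM. NOTCH1 fell from 934 and 943 CPM to 158 and 152 CPM (log2 fold change −2.60 ± 0.06, adjusted p = 1.92e-16). ATP2A3, the calcium pump of the endoplasmic reticulum in blood cells, fell from 1208 and 1219 CPM to 386 and 371 CPM (−1.68 ± 0.07). FLNA, the actin crosslinker filamin A, fell from 997 and 1033 CPM to 398 and 355 CPM (−1.43 ± 0.07), and the cytoplasmic actin gene ACTB fell from 3020.2 and 2744 CPM to 2043 and 2004 CPM (−0.51 ± 0.09). TRBC2, a constant segment of the T-cell receptor beta chain, fell from 4587 and 4529 CPM to 3290.2 and 3258 CPM (−0.48 ± 0.09). GAPDH, a glycolytic enzyme often used as a reference gene, was at 5714 and 5941 CPM with DMSO and 4663 and 4667 CPM with ACBI-1 (−0.32 ± 0.10), and leaving out ACBI-1 replicate 2 raised its adjusted p to 0.0597 (−0.32). The actin and GAPDH genes have many near-identical pseudogene copies, and how reads shared with those were assigned is not given in the sources used here.

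The gene lists that follow are described by how many tested members were called, beside the 20.7% of all genes that rose and the 24.4% that fell. Of the lists with at least 10 tested members, other than markers, cholesterol synthesis had the highest share of rises and proximal T-cell receptor signalling the highest share of falls. Fewer cells of a type and less RNA per cell cannot be told apart in bulk RNA. Leaving out both replicate 2 libraries kept no replicate within a MOLT-4 treatment, so calls then rested on the spread between DND-41 libraries. Calls lost in that setting are no measure of the spread in MOLT-4.

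**Figure D3:**
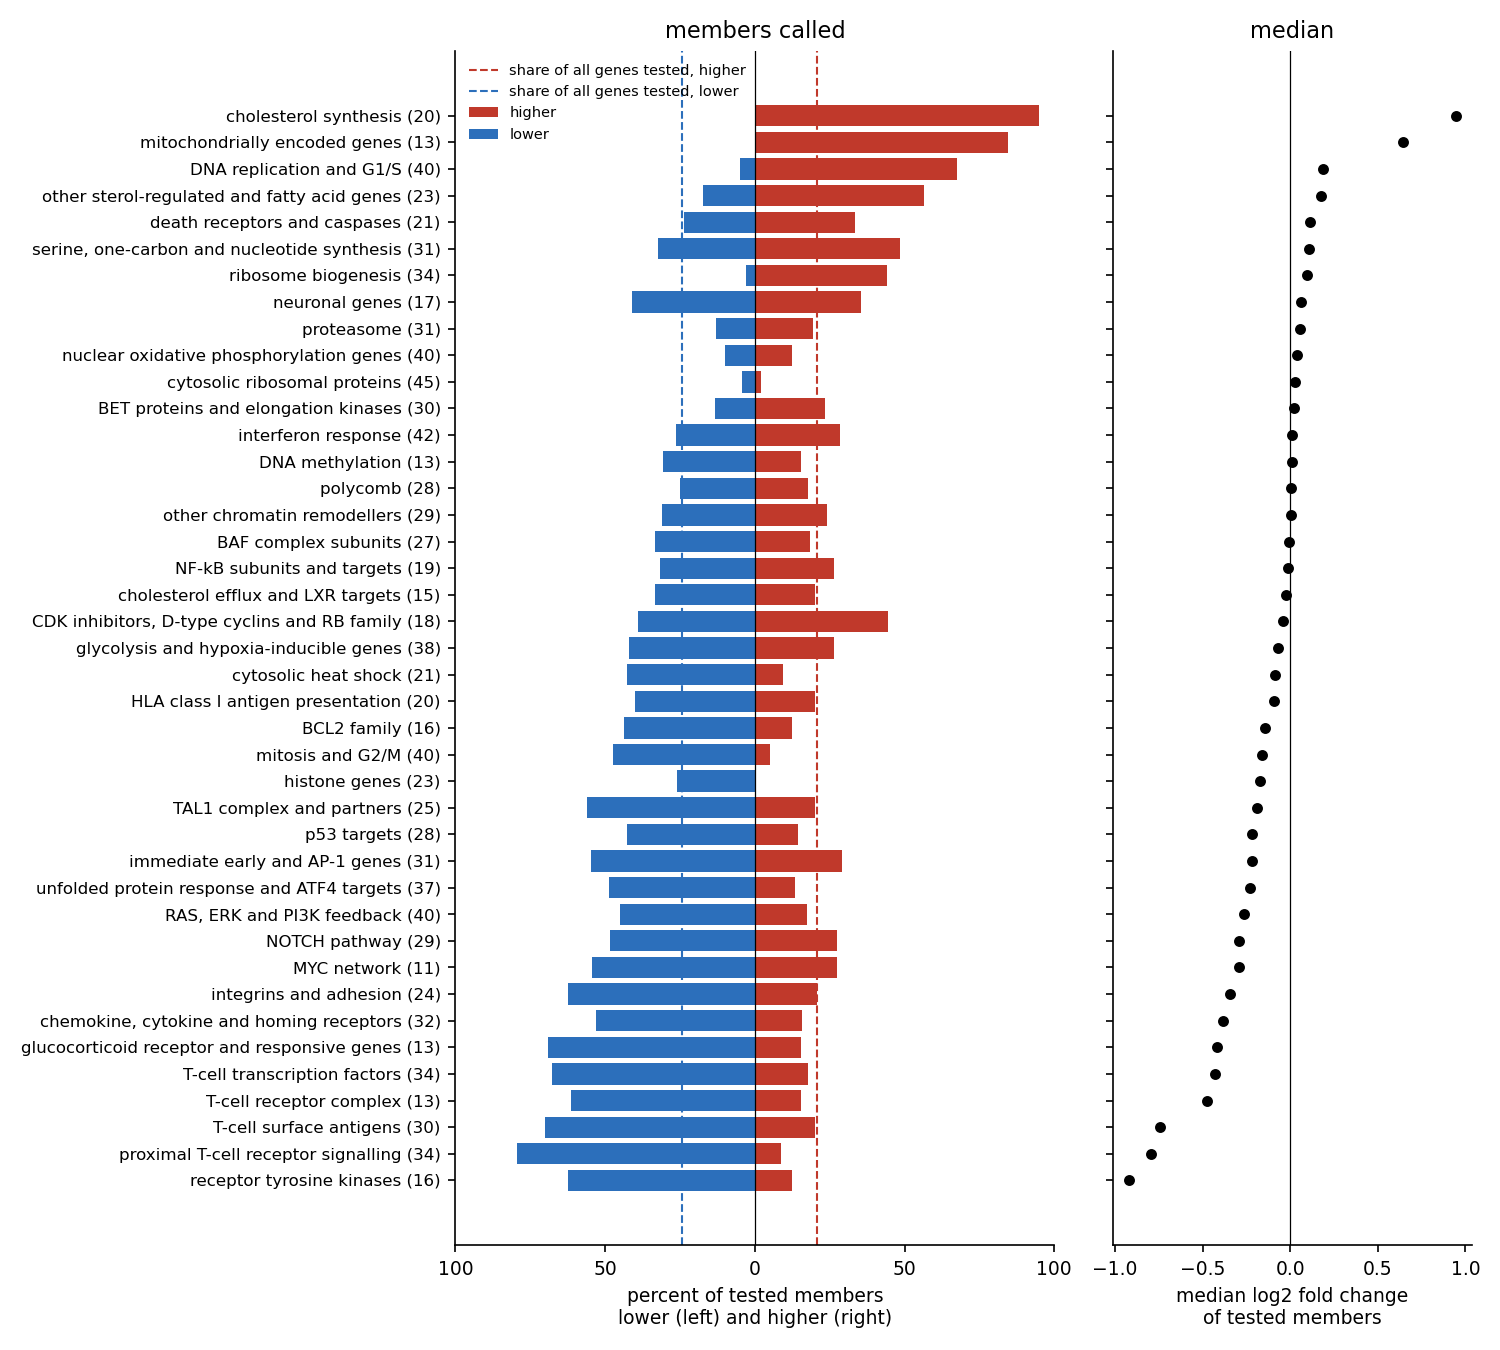
Percent of tested members called higher (right) and lower (left) in each gene list with 10 or more tested members (number in brackets), with dashed lines at the shares of all genes tested, and, on the right, the median log2 fold change of the list. Cholesterol synthesis (19 of 20 higher) lies at the top and T-cell and receptor lists lie at the bottom.

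NOTCH receptors are cleaved on ligand binding, and the freed intracellular part enters the nucleus, binds the DNA-binding protein RBPJ and activates target genes such as HES1, DTX1 and MYC. Of 29 NOTCH pathway genes tested, 14 fell and 8 rose, and 9 of the falls were 2-fold or more. The receptors fell: NOTCH1 as above, NOTCH2 from 137 and 128 CPM to 62.1 and 58.5 CPM (−1.14 ± 0.06) and NOTCH3 from 24.8 and 28.5 CPM to 1.7 and 2.54 CPM (−3.65 ± 0.15). Among targets, HES1, a transcriptional repressor, fell from 62.6 and 59.5 CPM to 5.35 and 5.7 CPM (log2 fold change −3.46 ± 0.09, adjusted p = 3.59e-16), DTX1 fell from 35.5 and 35.7 CPM to 2.2 and 3.63 CPM (−3.61 ± 0.13), HES6 from 4.32 and 4.42 CPM to 1.05 and 0.778 CPM (−2.25 ± 0.25) and the pre-T-cell receptor gene PTCRA from 10.8 and 13.1 CPM to 4.6 and 6.38 CPM (−1.13 ± 0.15). MYC, which is a NOTCH1 target in T-ALL, was at 746 and 758 CPM with DMSO and 902 and 923 CPM with ACBI-1 (log2 fold change 0.28 ± 0.06, adjusted p = 0.00156), and scaling by library size alone left it at 0.20 with an adjusted p of 0.111. The kinase-cyclin gene CCND3 rose from 679 and 704 CPM to 899 and 829 CPM (0.32 ± 0.07). Of the protease that releases the intracellular part, APH1A fell (−0.49 ± 0.07), and the shedding protease ADAM10 fell from 109 and 111 CPM to 65.3 and 63.1 CPM (−0.78 ± 0.05). RBPJ itself was at 72.7 and 61.8 CPM with DMSO and 80.6 and 80.6 CPM with ACBI-1 (0.26 ± 0.07), and was not called when DMSO replicate 2 was left out (0.15, with an adjusted p of 0.0676) or when library size alone set the scale (0.18, with an adjusted p of 0.0715). The number of rises fell to 4 with library size alone, to 5 with DESeq2 and to 3 without both replicate 2 libraries.

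The HES1 promoter is shown because HES1 is the classical target gene of this pathway and carries the letters GTGGGAA, the core bound by RBPJ, upstream of its start. The sequence is the upstream part of the RefSeq window (GRCh38.p14, chr3:194136033-194136099, plus strand), with the match in capitals, starting 85 bases before the start site.

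HES1: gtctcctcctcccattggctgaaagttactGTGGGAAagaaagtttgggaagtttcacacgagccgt

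Windows of 250 bases before to 50 bases after the start were held for 10186 of the 14239 tested genes, 14753 windows in all. GTGGGAA on either strand occurred in 5.73% of all windows, in 9.49% of the windows of genes that rose 2-fold or more, in 6.08% of those that fell 2-fold or more and in 4 of 34 windows of the NOTCH list (11.8%). These are letter matches and say nothing of binding.

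TAL1 forms a complex with LMO2, LDB1 and E proteins that works beside GATA3, RUNX1 and MYB at T-ALL enhancers. Of 25 tested members and partners, 14 fell and 5 rose. TAL1 fell from 53 and 52.6 CPM to 39.1 and 39.2 CPM (log2 fold change −0.43 ± 0.07, adjusted p = 2.78e-05). LMO2 fell from 5.76 and 5.69 CPM to 1.4 and 1.09 CPM (−2.19 ± 0.22) and GATA3 from 262 and 236 CPM to 143 and 123 CPM (−0.90 ± 0.07). RUNX1 was at 701 and 649.8 CPM with DMSO and 674 and 606 CPM with ACBI-1 (−0.08 ± 0.07), adjusted p = 0.386, whereas CBFB, its DNA-binding partner, fell from 73.1 and 70.7 CPM to 30.5 and 31.3 CPM (−1.22 ± 0.07). MYB went the other way, from 692 and 664 CPM to 1047 and 1040.4 CPM (log2 fold change 0.62 ± 0.07, adjusted p = 2.32e-07), with both treated libraries above both controls. The retinoic acid synthesis gene ALDH1A2, a TAL1 target, rose from 219 and 200.2 CPM to 299.8 and 279.8 CPM (0.47 ± 0.06). Of cofactors of the complex, SSBP2 fell from 101 and 105 CPM to 41.8 and 41.8 CPM (−1.30 ± 0.06) and CBFA2T3 rose from 77.9 and 77.8 CPM to 102 and 103 CPM (0.39 ± 0.05). MYCN fell from 9.33 and 8.61 CPM to 1.95 and 1.82 CPM (−2.25 ± 0.17).

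Most genes in the list of T-cell transcription factors fell, a list not confined to factors that build T-cell identity. Of 34 tested, 23 fell and 6 rose, with a median of −0.43. WT1, a zinc-finger factor, fell from 52.9 and 56.4 CPM to 7.45 and 6.17 CPM (log2 fold change −3.00 ± 0.09, adjusted p = 4.5e-15). NFATC2, the calcium-responsive factor, fell from 72.6 and 68.7 CPM to 14.8 and 13.5 CPM (−2.32 ± 0.08), FLI1 from 97.1 and 92.2 CPM to 39.9 and 41.2 CPM (−1.22 ± 0.06) and TOX from 373 and 343 CPM to 186 and 164 CPM (−1.03 ± 0.06). BCL11B, which commits progenitors to the T lineage, fell from 116 and 113 CPM to 64.5 and 59.2 CPM (−0.89 ± 0.06). TCF7, the member with the highest CPM, fell from 2689 and 2675 CPM to 1873 and 1935 CPM (−0.49 ± 0.08). ERG, ETS1 and IKZF1 rose: ERG from 103 and 102 CPM to 198 and 189 CPM (0.92 ± 0.05), IKZF1 from 423 and 413 CPM to 632 and 583 CPM (0.54 ± 0.06) and ETS1 from 259 and 247 CPM to 368 and 337 CPM (0.48 ± 0.06). FLI1 and ERG, closely related ETS factors, thus differed in direction. The rises numbered 3 with library size alone and 3 without both replicate 2 libraries.

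The T-cell receptor signals through CD3 chains, the kinases LCK and ZAP70, the adaptors LAT and LCP2, and the enzymes VAV1 and PLCG1. Of 34 tested genes of this proximal machinery, 27 fell and 3 rose, the median was −0.80, and 15 fell 2-fold or more. The count of falls was 24 to 27 over the alternatives. ZAP70 fell from 581 and 614 CPM to 254 and 258 CPM (log2 fold change −1.22 ± 0.06, adjusted p = 2.14e-12). LAT fell from 18.5 and 20.3 CPM to 4.2 and 3.32 CPM (−2.36 ± 0.13), LCP2 from 227 and 199 CPM to 58.7 and 46.5 CPM (−2.02 ± 0.08) and VAV1 from 150.1 and 160.5 CPM to 49.4 and 43.9 CPM (−1.73 ± 0.06). PLCG1 fell from 313 and 320.5 CPM to 182 and 182 CPM (−0.80 ± 0.05), and LCK, which starts the cascade, fell less, from 419 and 429 CPM to 346 and 338 CPM (−0.31 ± 0.06). The kinase FYN was at 105 and 103 CPM with DMSO and 101 and 102 CPM with ACBI-1 and was not called.

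UBASH3A, a phosphatase-like inhibitor, fell from 135 and 135 CPM to 36.6 and 36.1 CPM (−1.89 ± 0.06), PTPN6, the phosphatase SHP-1, fell from 43.8 and 43.3 CPM to 10.8 and 12.4 CPM (−1.91 ± 0.08), and SLA, an adaptor that lowers receptor levels, fell from 52.9 and 51.5 CPM to 12.5 and 12 CPM (−2.09 ± 0.08). PTPRCAP, a partner of the CD45 phosphatase, fell from 182 and 186 CPM to 26.6 and 26.7 CPM (log2 fold change −2.79 ± 0.06, adjusted p = 4.28e-17), while PTPRC, which encodes CD45, rose from 329 and 325 CPM to 442 and 418 CPM (0.40 ± 0.06). The other rises were PRKCQ, a protein kinase C of T cells, at 63.8 and 68.5 CPM with DMSO and 83.1 and 84 CPM with ACBI-1 (0.34 ± 0.06), and CBLB, a ubiquitin ligase that restrains receptor signals, at 29.3 and 29.8 CPM with DMSO and 40.6 and 38.7 CPM with ACBI-1 (0.42 ± 0.07). SH2D2A, an adaptor, had the largest fall of the list, from 17.7 and 19 CPM to 1.9 and 1.87 CPM (−3.28 ± 0.14). These members beyond the 6 with the smallest adjusted p were named after their values were seen.

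The list of the receptor's chains also holds the partner TRAT1 and the enzymes that join receptor genes, and its members were uneven. Of 13 tested, 8 fell and 2 rose. CD3G rose from 178 and 143 CPM to 344 and 345 CPM (log2 fold change 1.11 ± 0.07, adjusted p = 3.17e-10), CD247, the zeta chain, fell from 161 and 169.6 CPM to 67.1 and 62.4 CPM (log2 fold change −1.35 ± 0.06, adjusted p = 3.19e-13), and CD3D and CD3E were not called (0.05 and −0.06). TRAC, the alpha constant segment, fell from 15.5 and 13.7 CPM to 3.55 and 3.11 CPM (−2.13 ± 0.14). TRGC2, a gamma constant segment, was at 6 and 4.89 CPM with DMSO and 0.35 and 0.207 CPM with ACBI-1. TRGC2 and TRGC1 are near-identical copies, so the split of reads between them is uncertain. DNTT, which adds bases as receptor genes are joined, was at 99.5 and 102 CPM with DMSO and 111 and 111 CPM with ACBI-1. The DNTT call, 0.14 ± 0.05, did not hold when DMSO replicate 1 (0.13, adjusted p of 0.0933), ACBI-1 replicate 1 (0.15, adjusted p of 0.142) or ACBI-1 replicate 2 (0.14, adjusted p of 0.137) was left out, which left CD3G as the 1 rise where ACBI-1 replicate 2 or DMSO replicate 1 was left out.

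**Figure D4:**
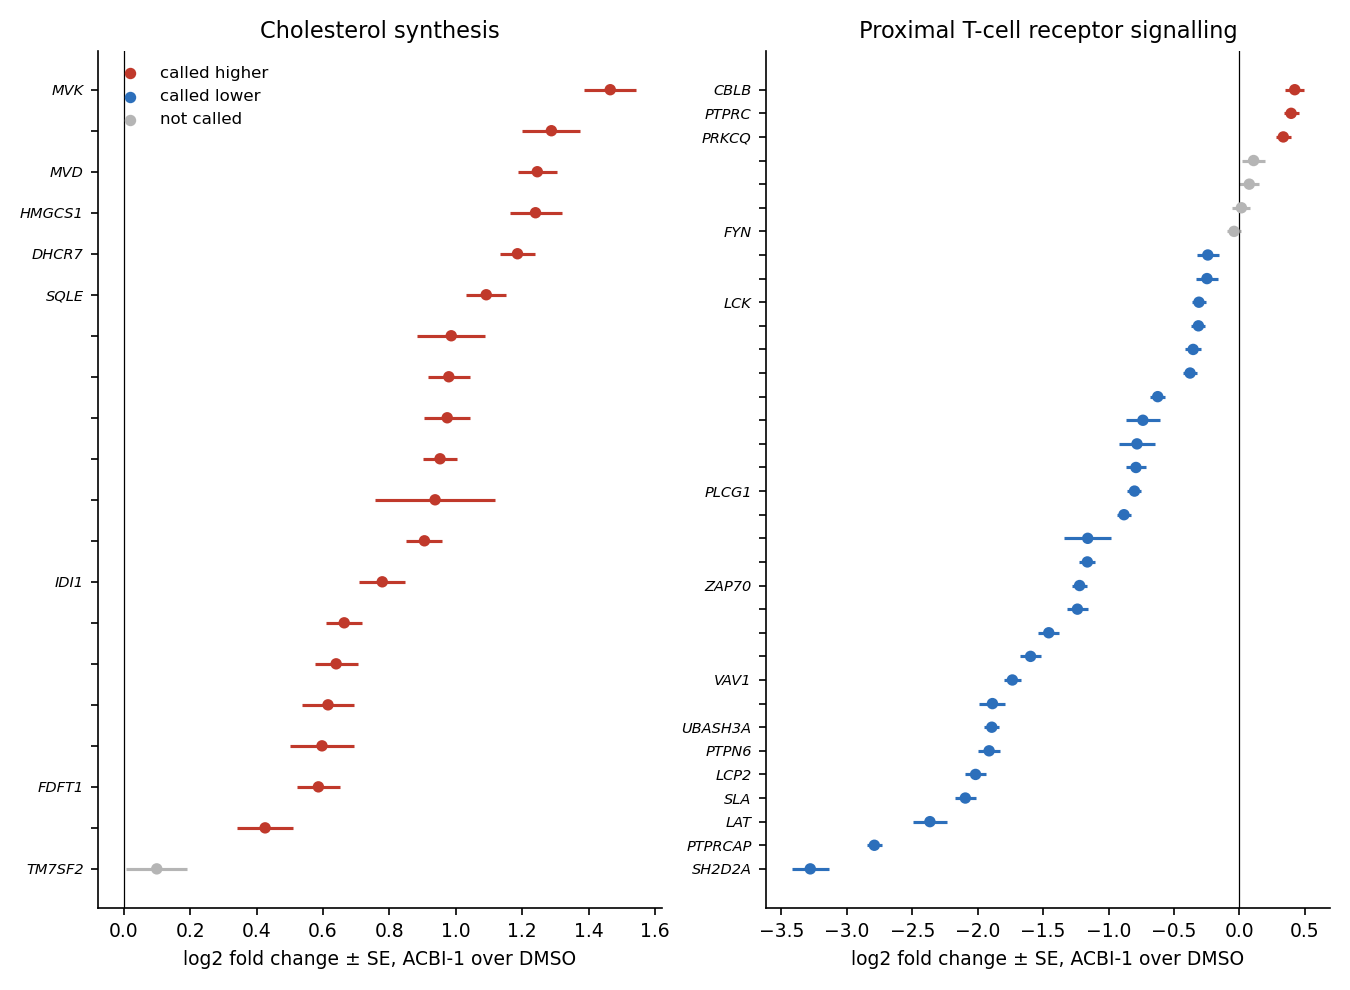
Log2 fold change of ACBI-1 over DMSO with its standard error for each tested gene of cholesterol synthesis (left) and of proximal T-cell receptor signalling (right), ordered by size, with genes named in the text labelled. Of 20 synthesis genes 19 were called higher, and of 34 signalling genes 27 were called lower and 3 higher.

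Surface antigens of T cells showed the same predominance of falls, 21 of 30 tested against 6 rises (median −0.74). CD6, CD5 and CD48 fell 2-fold or more: CD6 from 86.2 and 84.1 CPM to 13 and 10.3 CPM (log2 fold change −2.87 ± 0.09, adjusted p = 3.59e-15), CD5 from 165 and 176 CPM to 63.6 and 65.8 CPM (−1.40 ± 0.06) and CD48 from 20.6 and 21.3 CPM to 2.6 and 3.06 CPM (−2.89 ± 0.13). CD7 fell from 69.7 and 70.5 CPM to 25 and 28.6 CPM (−1.39 ± 0.07) and CD44, the hyaluronan receptor, also fell (−1.64 ± 0.08). CD38, an ectoenzyme, and CD1D, which presents lipids, rose, CD38 from 71.3 and 60.9 CPM to 124 and 116 CPM (0.86 ± 0.07) and CD1D from 20.4 and 24 CPM to 36.7 and 44.1 CPM (0.86 ± 0.09). SLAMF6 rose by 0.44 ± 0.08. The rises numbered 3 without both replicate 2 libraries.

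In the list of chemokine, cytokine and homing receptors, which also holds signalling genes such as JAK3 and STAT5B, 17 of 32 tested fell and 5 rose. The filter that asks for 1 CPM in every library left 11 falls, since it removes genes that fall to low levels. CXCR4, the receptor of CXCL12 that holds leukaemic cells in the marrow, fell from 359.7 and 341 CPM to 79.9 and 78.8 CPM (log2 fold change −2.14 ± 0.06, adjusted p = 5.18e-16). JAK3, the kinase that serves receptors with the common gamma chain, fell from 61.2 and 56.7 CPM to 6.95 and 6.85 CPM (log2 fold change −3.09 ± 0.09, adjusted p = 1.3e-15), and IL2RG, that chain, fell from 479 and 412 CPM to 235 and 214 CPM (−0.99 ± 0.07). STAT5B, the transcription factor downstream of these receptors, rose from 266 and 254 CPM to 402 and 383 CPM (0.59 ± 0.06). S1PR1, which draws lymphocytes into blood, rose from 21.4 and 23.9 CPM to 38 and 34 CPM (0.67 ± 0.08), and IL6ST, the shared chain of interleukin-6 type receptors, rose from 8.83 and 8.84 CPM to 15 and 15.4 CPM (0.78 ± 0.10).

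Integrins and their partners fell in 15 of 24 tested genes and rose in 5, or in 3 without ACBI-1 replicate 1. ITGAL, the alpha chain of LFA-1, fell from 159 and 161 CPM to 22.8 and 26.9 CPM (log2 fold change −2.69 ± 0.07, adjusted p = 2.4e-16). The integrin activator FERMT3 fell from 165 and 159.8 CPM to 75.3 and 72 CPM (−1.14 ± 0.05). PTK2B, the focal adhesion kinase paralog that lymphoid cells use, fell from 113 and 111 CPM to 30.8 and 26.6 CPM (log2 fold change −1.97 ± 0.07, adjusted p = 2.31e-14), while PTK2 rose as above. VCL, which links integrins to actin, rose from 18 and 21.8 CPM to 29.3 and 28.5 CPM (0.54 ± 0.09).

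Of 16 receptor tyrosine kinases tested, 10 were lower (6 with the 1 CPM filter) and 2 higher. Their median was −0.92, and it was −0.66 with the 1 CPM filter and −0.76 without DMSO replicate 2. FGFR1 fell as above. IGF1R, the insulin-like growth factor receptor, fell from 72.2 and 74 CPM to 37 and 37.5 CPM (log2 fold change −0.97 ± 0.07, adjusted p = 3.09e-10). EPHB6, an ephrin receptor without kinase activity, fell from 201 and 208 CPM to 133 and 131 CPM (−0.64 ± 0.05). RYK rose from 30.02 and 31.5 CPM to 44.8 and 42.1 CPM (0.50 ± 0.07). The other rise, EPHB4, at 3.13 and 3.76 CPM with DMSO and 4.6 and 4.87 CPM with ACBI-1 (0.46 ± 0.18), did not hold when ACBI-1 replicate 1 (0.50, adjusted p of 0.0816), ACBI-1 replicate 2 (0.42, adjusted p of 0.153) or DMSO replicate 1 (0.34, adjusted p of 0.225) was left out.

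Downstream, 18 of 40 tested genes of RAS, ERK and PI3K signalling and its feedback fell and 7 rose (4 by DESeq2 or without both replicate 2 libraries). AKT1 and AKT2 moved apart: AKT1 fell from 135 and 131 CPM to 60.7 and 58.3 CPM (log2 fold change −1.16 ± 0.05, adjusted p = 1.7e-12), and AKT2 rose from 252 and 257 CPM to 311 and 330.1 CPM (log2 fold change 0.33 ± 0.06, adjusted p = 6.74e-05). PIK3CD, the leukocyte PI3-kinase catalytic subunit, fell from 30.3 and 29.8 CPM to 7.7 and 6.43 CPM (−2.08 ± 0.10). RASA3, a GTPase-activating protein that turns RAS off, rose from 56.2 and 61.3 CPM to 145 and 145 CPM (log2 fold change 1.30 ± 0.06, adjusted p = 5.58e-13). SPRY4, a feedback inhibitor of ERK signalling, rose from a low level, from 1.19 and 1.32 CPM to 5.15 and 4.93 CPM. DDIT4, an inhibitor of mTORC1, fell from 19.2 and 19.7 CPM to 3.4 and 3.73 CPM (−2.44 ± 0.12).

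Cholesterol is made from acetyl-CoA through mevalonate, squalene and lanosterol by enzymes whose genes are switched on by the membrane-bound factors SREBF1 and SREBF2 when sterols run low. All 20 genes of the pathway were tested, 19 rose and none fell (18 or 19 rises and no fall over the alternatives), with a median of 0.94. The median over all genes was 0.00. Early steps rose: HMGCS1 from 48.2 and 56.3 CPM to 113 and 134 CPM (1.24 ± 0.08) and MVK, mevalonate kinase, from 20.5 and 23 CPM to 58.5 and 61.9 CPM (log2 fold change 1.46 ± 0.08, adjusted p = 9.9e-12). MVD rose from 55.4 and 60.4 CPM to 133 and 141 CPM (log2 fold change 1.25 ± 0.06, adjusted p = 1.74e-12). Midway along the pathway IDI1 rose from 43.5 and 45.6 CPM to 71.7 and 81.2 CPM (0.78 ± 0.07), FDFT1, which makes squalene, from 312 and 344 CPM to 466 and 518 CPM (0.59 ± 0.07), and SQLE, which oxidises it, from 90.7 and 92.7 CPM to 184 and 207 CPM (1.09 ± 0.06). At the end of the pathway DHCR7 rose from 101 and 98.8 CPM to 222 and 232 CPM (log2 fold change 1.19 ± 0.05, adjusted p = 9.28e-13). TM7SF2, one of the sterol reductases, was the member not called, at 17 and 18.2 CPM with DMSO and 17.7 and 20.1 CPM with ACBI-1.

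The promoters of MVK, MVD and DHCR7, the 3 members with the smallest adjusted p, are shown because each holds repeated copies of CCAAT, the box bound by NF-Y, a factor that works beside the SREBF proteins at sterol genes. CCAAT or its reverse complement ATTGG is in capitals, and all stretches run 5′ to 3′ on the strand of the gene, upstream of the start site (RefSeq, GRCh38.p14). MVK (chr12:109573554-109573782, plus strand) has 5 matches, MVD (chr16:88663142-88663280, minus strand) has 3 and DHCR7 (chr11:71448407-71448517, minus strand) has 2, while a second DHCR7 window has none.

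MVK: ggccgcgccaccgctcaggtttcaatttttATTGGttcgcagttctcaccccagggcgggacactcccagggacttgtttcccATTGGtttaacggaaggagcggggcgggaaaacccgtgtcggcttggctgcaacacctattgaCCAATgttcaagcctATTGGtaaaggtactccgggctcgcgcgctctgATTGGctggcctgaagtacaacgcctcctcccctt

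MVD: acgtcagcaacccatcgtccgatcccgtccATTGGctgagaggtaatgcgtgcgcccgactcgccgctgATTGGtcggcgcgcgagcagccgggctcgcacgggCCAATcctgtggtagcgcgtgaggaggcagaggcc

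DHCR7: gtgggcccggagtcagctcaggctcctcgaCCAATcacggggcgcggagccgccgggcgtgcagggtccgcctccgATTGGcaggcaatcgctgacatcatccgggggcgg

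Of 20 windows held for 15 cholesterol synthesis genes, 15 contained CCAAT on either strand (75.0%), against 34.8% of the windows of all tested genes. The sterol element letters TCACNCCAC were in none of the 20 and in 1.13% of all windows. The first share describes this list of genes, which was chosen by function, and no test of it was made.

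Other genes regulated by sterols had smaller fold changes, with a median of 0.18. Of 23 genes in the list of other sterol and fatty acid genes, 13 rose (8 with library size alone) and 4 fell (2 by DESeq2). IDI1, named above among the synthesis genes, counts in this list too and has its largest rise. SREBF2 rose from 404 and 402 CPM to 577 and 589 CPM (0.53 ± 0.06), and SREBF1 was not called, at 256 and 261 CPM with DMSO and 277 and 288 CPM with ACBI-1. FADS2, a fatty acid desaturase, rose from 659 and 654 CPM to 1073 and 1099 CPM (log2 fold change 0.73 ± 0.07, adjusted p = 2.55e-08), and FASN, which makes palmitate, rose from 776 and 811 CPM to 1247 and 1254 CPM (0.66 ± 0.07), whereas the neighbouring desaturase FADS1 fell from 178 and 170.2 CPM to 123 and 132 CPM (−0.45 ± 0.05) and LPIN1, which makes diacylglycerol, fell from 61 and 66.2 CPM to 31.6 and 30.3 CPM (−1.04 ± 0.07). On the side of export and storage, 3 of 15 rose and 5 fell (3 by DESeq2). NPC1 and NPC2, which carry cholesterol out of lysosomes, rose from 17 and 15.8 CPM to 24.5 and 26 CPM (0.62 ± 0.08) and from 29.5 and 31.6 CPM to 44.2 and 41.5 CPM (0.49 ± 0.07). ABCA1 fell as above and its relative ABCG1 was at 136 and 138 CPM with DMSO and 167 and 177 CPM with ACBI-1 (0.33 ± 0.05).

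The interaction of treatment and line gave 2068 genes, 13.3% of 15498 tested, whose response in MOLT-4 differed from that in DND-41. Of these, 1112 were more positive and 956 more negative in MOLT-4. Which direction was more frequent depended on the processing, with 499 positive and 1411 negative with library size alone. Positive genes stayed the larger group with DESeq2 (669 and 638), RLE size factors (1067 and 999) and the replicate block (1398 and 1181). With no filter the genes with a line difference were 1069 positive and 1077 negative, and with the 1 CPM filter 1011 and 1046. Cholesterol synthesis was among the lists with the most such genes: 17 of 20 were more positive in MOLT-4 and none more negative, with 13 to 17 over the alternatives. The count was 13 without any of MOLT-4 ACBI-1 replicate 2, MOLT-4 DMSO replicate 2 and DND-41 DMSO replicate 2. HMGCS1 differed by 1.31 ± 0.11, adjusted p = 1.58e-07, MVK by 0.88 ± 0.10, adjusted p = 6.62e-06 and SQLE by 0.86 ± 0.09, adjusted p = 1.61e-06 on the log2 scale. MVK, MVD and DHCR7 stood higher with ACBI-1 in DND-41 too. There MVK was at 32.0 and 30.7 CPM with DMSO and 46.7 and 47.8 CPM with ACBI-1. MVD was at 93.1 and 89.7 CPM with DMSO and 151 and 157 CPM with ACBI-1. DHCR7 was at 130 and 121 CPM with DMSO and 187 and 172 CPM with ACBI-1. For HMGCS1 the difference exceeded its rise in MOLT-4. Of 29 NOTCH pathway genes 10 were more negative in MOLT-4 and 2 more positive, with 6 more negative without MOLT-4 ACBI-1 replicate 1 and 7 without DND-41 DMSO replicate 1 or without its replicate 2. HES1 differed by −1.97 ± 0.11, adjusted p = 9.47e-10 and NOTCH1 by −1.36 ± 0.10, adjusted p = 4.19e-08. HES1 was at 81.2 and 81.3 CPM with DMSO and 29.5 and 28.4 CPM with ACBI-1 in DND-41. Of 13 genes in the list of T-cell receptor chains and rearrangement enzymes, 7 were more negative in MOLT-4 (5 to 8 over the alternatives) and 1 more positive. MYC and MYB were more positive: MYC fell in DND-41 libraries from 722 and 732 to 537 and 533 CPM and differed by 0.72 ± 0.08, adjusted p = 5.38e-06, and MYB differed by 0.78 ± 0.09, adjusted p = 4.6e-06. TRIB1 rose more in MOLT-4, by 2.56 ± 0.38, adjusted p = 0.000115, and DDIT4, at 20.7 and 20.4 CPM with DMSO and 36.4 and 32.1 CPM with ACBI-1 in DND-41, differed by −3.17 ± 0.15, adjusted p = 1.08e-10.

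Other parts of metabolism were mixed. Of 31 genes for serine, one-carbon and nucleotide synthesis 15 rose and 10 fell. The ribonucleotide reductase subunit gene RRM2 rose from 288 and 286 CPM to 381 and 384 CPM (log2 fold change 0.42 ± 0.05, adjusted p = 3.42e-06). IMPDH1, which commits purines to guanine nucleotides, fell from 96.5 and 93.6 CPM to 33.2 and 31.9 CPM (log2 fold change −1.55 ± 0.06, adjusted p = 2.42e-13). The rises numbered 9 with library size alone and 8 without both replicate 2 libraries. Of 38 glycolytic and hypoxia-inducible genes 10 rose and 16 fell, with 6 rises without ACBI-1 replicate 1 or with library size alone and 3 without both replicate 2 libraries. The hexokinases moved apart, HK2 rising from 87 and 92.5 CPM to 120.4 and 121 CPM (0.43 ± 0.05) and HK1 falling from 84 and 84.3 CPM to 44.7 and 38.6 CPM (−1.01 ± 0.07). The glucose transporter SLC2A3 fell from 9.48 and 9.46 CPM to 1.9 and 1.5 CPM (−2.47 ± 0.17), and the enolase ENO2 fell from 53.3 and 50.4 CPM to 21.6 and 24.3 CPM (−1.18 ± 0.08).

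Mitochondrially encoded genes rose in 11 of 13 cases, with none lower and a median of 0.65, and their replicates differed widely. MT-ND6 was at 1451 and 1106 CPM with DMSO and 2167 and 3291 CPM with ACBI-1 (log2 fold change 1.09 ± 0.14, adjusted p = 3.57e-06), and MT-ATP8 was at 2743 and 2055 CPM with DMSO and 4089 and 6982 CPM with ACBI-1 (log2 fold change 1.21 ± 0.17, adjusted p = 1.14e-05). MT-CO2 and MT-CO3, with the same direction, were not called. In each of the named genes DMSO replicate 2 was the lowest library and ACBI-1 replicate 2 the highest. Without both replicate 2 libraries, which left no replicate within a treatment, the median was 0.25. DESeq2 with every MOLT-4 library called 6. Of 40 nuclear genes of oxidative phosphorylation, 5 were higher (3 without ACBI-1 replicate 1) and 4 lower (2 without ACBI-1 replicate 2), and without both replicate 2 libraries 1 was higher and none lower.

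The rises among genes of ribosome production were small. In ribosome biogenesis, 15 of 34 rose and 1 fell, with a median of 0.10, and the rises numbered 5 with library size alone and 7 without both replicate 2 libraries. RRP12 rose from 97.6 and 101 CPM to 131 and 129 CPM (0.39 ± 0.05), BYSL from 53 and 54.5 CPM to 79.4 and 71.4 CPM (0.49 ± 0.07) and POLR1A, the largest subunit of RNA polymerase I, from 169 and 170.4 CPM to 219 and 215 CPM (0.36 ± 0.05). Of 45 cytosolic ribosomal protein genes, 1 rose and 2 fell by the edgeR test, and 8 rose and none fell without DMSO replicate 2. In the MYC network, 6 of 11 fell and 3 rose (1 with library size alone). MXD4, a repressor that competes with MYC, fell from 66.9 and 75 CPM to 45.6 and 43.8 CPM (−0.67 ± 0.07), and MNT, of the same family of competitors, rose from 49.4 and 49.1 CPM to 70.9 and 65 CPM (0.46 ± 0.07).

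Genes of DNA replication rose more often than they fell, and mitotic genes fell more often than they rose, by little per gene. Of 40 genes of DNA replication and the G1/S step, 27 rose and 2 fell, with a median of 0.19. CCNE2, a cyclin that starts replication, rose from 21.3 and 21.6 CPM to 35.8 and 37.7 CPM (log2 fold change 0.77 ± 0.07, adjusted p = 4.62e-08), and the E2F activators E2F2 and E2F3 rose from 71.5 and 68.2 CPM to 101 and 87.2 CPM (0.43 ± 0.07) and from 72.9 and 71.9 CPM to 96.3 and 95.8 CPM (0.41 ± 0.05). The helicase gene MCM4 rose from 398 and 405 CPM to 488 and 494 CPM (0.29 ± 0.06), though with library size alone it was at 0.21 with an adjusted p of 0.0544. E2F8, an atypical repressor, fell from 53.8 and 55 CPM to 39 and 35.9 CPM (−0.54 ± 0.07), and POLE, a leading-strand polymerase, fell from 391 and 409 CPM to 325 and 320.2 CPM (−0.31 ± 0.06). The 27 rises became 8 with library size alone and 11 without both replicate 2 libraries, while the falls stayed at 2.

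Of 40 mitotic genes, 19 fell and 2 rose, with a median of −0.16, and the falls numbered 13 to 21 over the alternatives. PTTG1, which encodes securin, a regulator of sister chromatid separation, fell from 129 and 138 CPM to 83.9 and 73.2 CPM (log2 fold change −0.77 ± 0.06, adjusted p = 6.07e-09). CDC25B, the phosphatase that starts mitosis, fell from 401 and 406 CPM to 284 and 279 CPM (log2 fold change −0.52 ± 0.05, adjusted p = 2.16e-07), and CCNB2, a mitotic cyclin, from 101 and 101 CPM to 72.6 and 75.2 CPM (−0.45 ± 0.05). CDC20 (−0.44 ± 0.05), PLK1 (−0.38 ± 0.05) and UBE2C (−0.41 ± 0.05), which act in mitotic entry and exit, fell too. The kinase gene CDK1 was at 89.5 and 91.8 CPM with DMSO and 88.3 and 95.3 CPM with ACBI-1 and was not called. The 2 rises, CDC25A and PLK4 (0.18 ± 0.06 and 0.14 ± 0.05), both ended without ACBI-1 replicate 1, where no mitotic gene was called higher.

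**Figure D5:**
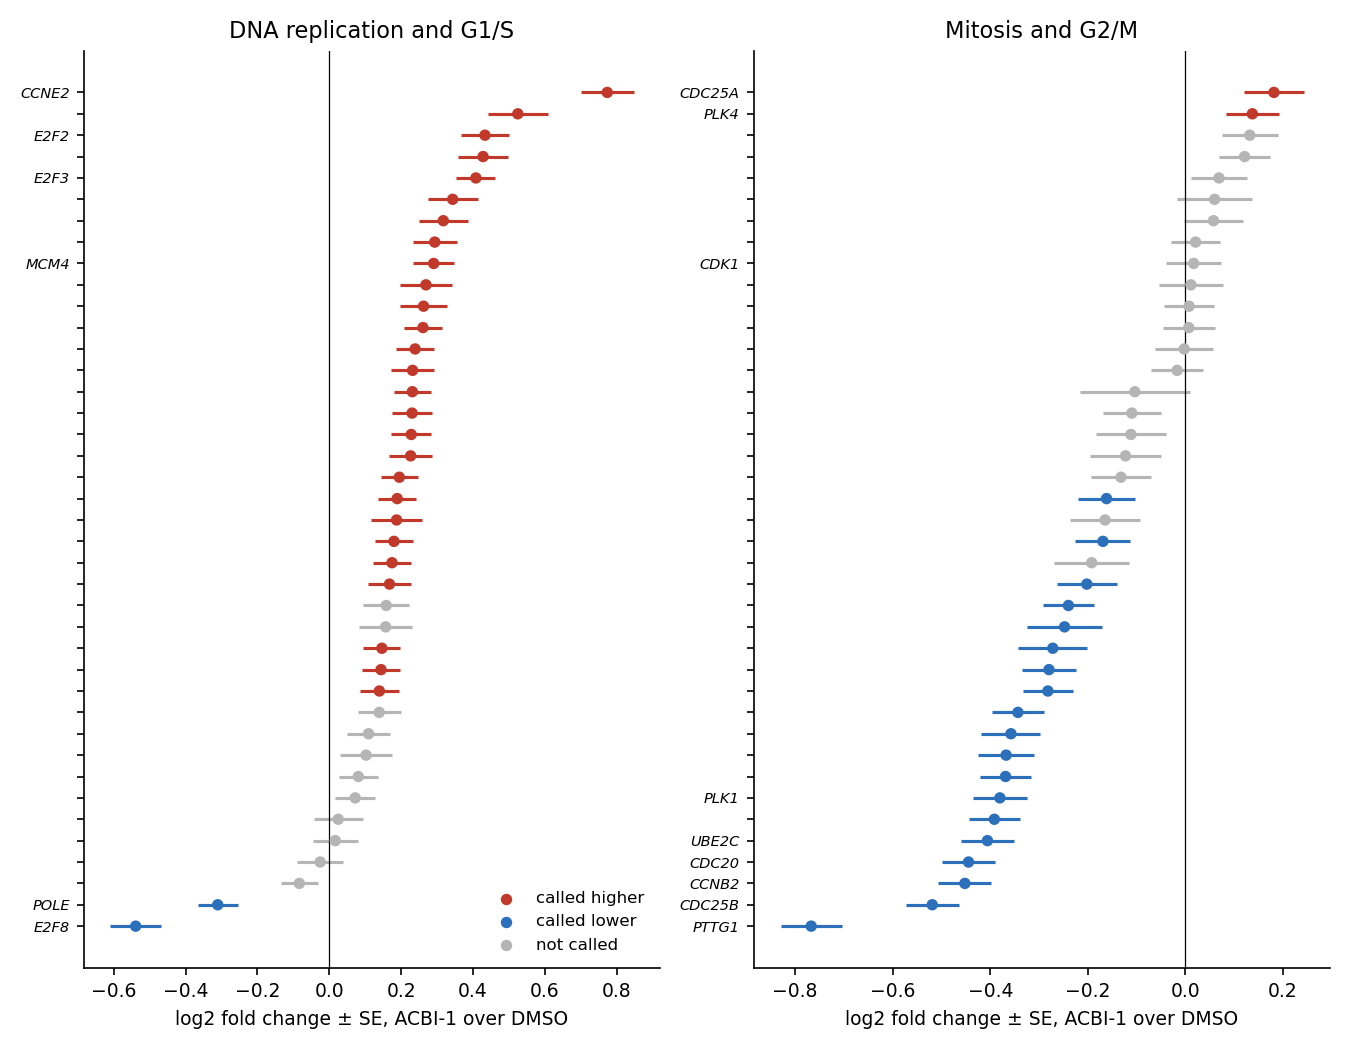
Log2 fold change of ACBI-1 over DMSO with its standard error for the 40 tested genes of DNA replication and G1/S (left) and the 40 of mitosis and G2/M (right), each ordered by size, coloured by the edgeR call and labelled where named in the text. Changes of 0.5 or more in size are few, with 27 replication genes higher and 19 mitotic genes lower.

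Among cyclin-dependent kinase regulators 8 of 18 rose and 7 fell, with 4 falls without ACBI-1 replicate 2, and 3 rises and 3 falls without both replicate 2 libraries. CDK6, a G1 kinase of T cells, fell from 996 and 966 CPM to 669 and 589 CPM (log2 fold change −0.64 ± 0.07, adjusted p = 4.4e-07), and its inhibitor gene CDKN2D fell from 30.7 and 33.8 CPM to 16.5 and 17.2 CPM (−0.94 ± 0.08). The RB-family genes RBL1 and RBL2 rose from 72.9 and 71.6 CPM to 91.9 and 85.5 CPM (0.30 ± 0.06) and from 103 and 108 CPM to 129 and 134 CPM (0.32 ± 0.05).

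Apoptosis regulators showed falls on both sides of the balance. In the BCL2 family 7 of 16 fell and 2 rose, or 4 rose without DMSO replicate 1. The survival genes BCL2 and MCL1 fell, BCL2 from 20.9 and 19.9 CPM to 11.9 and 12 CPM (log2 fold change −0.77 ± 0.09, adjusted p = 1.24e-06) and MCL1 from 87.6 and 87.7 CPM to 60.2 and 60.8 CPM (log2 fold change −0.53 ± 0.06, adjusted p = 2.16e-07). BCL2L11, which encodes the death-promoting protein BIM, rose from 47.7 and 44.5 CPM to 78.8 and 79.8 CPM (log2 fold change 0.78 ± 0.06, adjusted p = 4.54e-09). BID and BIK, also death-promoting, fell from 66.2 and 64.9 CPM to 37.2 and 33.6 CPM (−0.89 ± 0.07) and from 4.27 and 5.17 CPM to 0.95 and 1.3 CPM (−2.07 ± 0.25). Of 21 death receptor and caspase genes 7 rose (4 with library size alone, 3 without both replicate 2 libraries) and 5 fell. FAS, a death receptor, fell from 13.9 and 15.1 CPM to 5 and 6.02 CPM (−1.40 ± 0.12), and CFLAR, which blocks its signal, rose from 20.3 and 21.2 CPM to 33.9 and 30.7 CPM (0.64 ± 0.08). The caspase gene CASP6 fell from 29.5 and 29.5 CPM to 17.6 and 17.1 CPM (−0.77 ± 0.08).

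Of 28 p53 target genes 12 fell and 4 rose, with 6 falls by DESeq2 and 2 rises without ACBI-1 replicate 2. In the glucocorticoid list 9 of 13 fell and 2 rose. NR3C1, the receptor, rose from 29.3 and 29.9 CPM to 44.8 and 43.8 CPM (log2 fold change 0.58 ± 0.07, adjusted p = 1.5e-06), while FKBP5, a classical induced target, fell from 139 and 137 CPM to 80.8 and 83.6 CPM (log2 fold change −0.75 ± 0.05, adjusted p = 6.51e-10). ZBTB16, also a target, fell from 6.85 and 7.2 CPM to 0.85 and 0.674 CPM (−3.19 ± 0.22). BCL2L11 counts in this list too.

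Interferon genes went both ways, 12 of 42 higher and 11 lower (6 lower by DESeq2), close to the shares of all genes. RSAD2, an antiviral enzyme, rose from 6.1 and 5.74 CPM to 23.2 and 18.7 CPM (log2 fold change 1.82 ± 0.12, adjusted p = 3.46e-10), OAS1 from 5.66 and 4.19 CPM to 15.1 and 13.3 CPM (1.53 ± 0.14) and SAMD9L from 37.6 and 35.8 CPM to 65.3 and 68.1 CPM (0.86 ± 0.07), while MX2 fell from 116 and 116 CPM to 67.8 and 71.8 CPM (log2 fold change −0.73 ± 0.05, adjusted p = 1.72e-09) and IRF2 from 40.4 and 37.1 CPM to 22.8 and 22.3 CPM (−0.78 ± 0.08). Of 6 tested HLA class II presentation genes 1 rose and 1 fell, the fall being lost without ACBI-1 replicate 2 or DMSO replicate 1. In HLA class I presentation 4 of 20 rose and 8 fell (4 without both replicate 2 libraries). TAP2, a peptide transporter, rose from 55.7 and 47 CPM to 93.8 and 98.7 CPM (0.91 ± 0.07), and the chaperone CANX fell from 473 and 474 CPM to 333 and 351 CPM (−0.47 ± 0.06). In the NF-kB list 5 of 19 rose (3 by DESeq2) and 6 fell. REL, a subunit, rose from 21.9 and 19.4 CPM to 39.3 and 34.4 CPM (0.84 ± 0.08), TNFAIP3, which ends the signal, fell from 63.3 and 59.7 CPM to 40.1 and 40.8 CPM (−0.60 ± 0.07), and LTB, a target, fell from 7.94 and 8.19 CPM to 0.85 and 1.19 CPM (−2.98 ± 0.20).

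Of 31 immediate early genes tested, 17 fell and 9 rose. NR4A3 and EGR2, factors induced by receptor signals, rose from low levels: NR4A3 was at 0.595 and 0.612 CPM with DMSO and 6.2 and 3.63 CPM with ACBI-1 (log2 fold change 3.02 ± 0.31, adjusted p = 1.74e-07) and EGR2 was at 1.19 and 0.659 CPM with DMSO and 6.3 and 4.51 CPM with ACBI-1 (log2 fold change 2.55 ± 0.27, adjusted p = 2.86e-07). EGR1 was at 43.7 and 31.6 CPM with DMSO and 96.3 and 60.5 CPM with ACBI-1 (1.06 ± 0.15). Among AP-1 genes BATF fell from 7.05 and 8.09 CPM to 2.15 and 2.13 CPM (−1.82 ± 0.17), JUN from 8.53 and 10.6 CPM to 3.95 and 5.19 CPM (−1.07 ± 0.16) and JUND from 103 and 101 CPM to 73.1 and 63.2 CPM (−0.59 ± 0.06), as did KLF10, a TGF-beta induced factor, from 52.2 and 48.2 CPM to 19.1 and 17.2 CPM (log2 fold change −1.46 ± 0.08, adjusted p = 1.48e-11). The filter that asks for 1 CPM in every library left 5 rises.

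Genes of the unfolded protein response fell more often than they rose, 18 of 37 against 5. HSPA5, the main chaperone of the endoplasmic reticulum, fell from 539.6 and 555 CPM to 198 and 220.0 CPM (log2 fold change −1.39 ± 0.06, adjusted p = 7.53e-13), XBP1, a transcription factor of the response, from 131 and 148 CPM to 51 and 52.5 CPM (log2 fold change −1.43 ± 0.06, adjusted p = 6.26e-13), HSP90B1 from 612 and 649 CPM to 345 and 354 CPM (−0.85 ± 0.06) and MANF from 102 and 103 CPM to 53.3 and 53.7 CPM (−0.94 ± 0.06). ATF4, a factor of another arm, was not called, at 287 and 295 CPM with DMSO and 305 and 283 CPM with ACBI-1. Its target ASNS rose from 14 and 13.5 CPM to 20.7 and 19.6 CPM (0.55 ± 0.09), while TRIB3 fell from 10.8 and 11.1 CPM to 4.65 and 4.1 CPM (−1.32 ± 0.13). Of 21 cytosolic heat shock genes 9 fell (3 without both replicate 2 libraries) and 2 rose (1 without ACBI-1 replicate 1 or DMSO replicate 1), and HSF1, the master factor, rose from 187 and 193 CPM to 242 and 240.2 CPM (0.35 ± 0.05).

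Among chromatin genes, changes of 2-fold or more were few. CHD4, the ATPase of the NuRD complex, fell from 516 and 537 CPM to 134 and 130.1 CPM (log2 fold change −1.997 ± 0.06, adjusted p = 1.72e-15), the only change of 2-fold or more among 29 other remodeller genes, of which 7 rose (3 with library size alone) and 9 fell. GATAD2A, a further NuRD subunit, fell from 255 and 243 CPM to 182 and 153 CPM (−0.57 ± 0.07), and CHD2 rose from 86.8 and 84.2 CPM to 134 and 131 CPM (0.63 ± 0.05). Among 27 BAF genes 5 rose and 9 fell. GLTSCR1L, a subunit of the non-canonical form, rose from 6.2 and 7.67 CPM to 20.4 and 20.3 CPM (log2 fold change 1.55 ± 0.11, adjusted p = 9.97e-10), and DPF3, a histone-reading subunit, fell from 13.3 and 10.6 CPM to 3.75 and 3.63 CPM (log2 fold change −1.69 ± 0.15, adjusted p = 1.46e-08). ARID1A, the defining subunit of the canonical form, rose from 612 and 571 CPM to 781 and 757 CPM (0.38 ± 0.06). The 9 BAF falls became 5 without ACBI-1 replicate 1, 4 without ACBI-1 replicate 2 and 3 without DMSO replicate 2, and the 5 rises became 8 without DMSO replicate 1.

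In the polycomb list 5 of 28 rose and 7 fell (3 and 4 without both replicate 2 libraries), with EZH1 higher (0.50 ± 0.06) and the PRC2 cofactors PHF19 and JARID2 lower (−0.53 ± 0.05 and −0.46 ± 0.05). Of 13 DNA methylation genes 2 rose and 4 fell (2 without both replicate 2 libraries). TET2, which oxidises methylcytosine, rose from 22 and 24.2 CPM to 44.1 and 38 CPM (0.83 ± 0.08), and UHRF1, which recruits maintenance methylation, fell from 331 and 354 CPM to 208 and 208 CPM (log2 fold change −0.72 ± 0.06, adjusted p = 2.97e-09), as did DNMT3B from 41.8 and 42 CPM to 23.4 and 21.7 CPM (−0.89 ± 0.07). Among BET proteins and elongation factors 7 of 30 rose (3 without both replicate 2 libraries) and 4 fell (2 without ACBI-1 replicate 1 or DMSO replicate 2). POLR2A, the largest subunit of RNA polymerase II, rose from 426 and 384 CPM to 572 and 757 CPM (0.71 ± 0.09), with the treated replicates far apart, and CDK9, the elongation kinase, fell from 36.9 and 40.2 CPM to 27.7 and 29 CPM (−0.44 ± 0.07). None of 23 histone genes rose and 6 fell, among them the linker histone gene H1F0, from 81.5 and 75.4 CPM to 25.6 and 23.3 CPM (−1.68 ± 0.07). Because many histone transcripts lack a poly(A) tail, their capture depends on how the library was made.

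Proteasome genes (6 of 31 higher, 4 lower) and the 5 genes of the VHL ligase that ACBI-1 recruits (1 higher, none lower by the edgeR test) were at or below the background shares. Leaving out ACBI-1 replicate 2 gave 3 proteasome rises and 1 fall. The 1 ligase call, RBX1, at 20.7 and 24.8 CPM with DMSO and 27.5 and 29.1 CPM with ACBI-1 (0.31 ± 0.09), was lost when DMSO replicate 1 was left out (0.20, adjusted p of 0.0756).

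Of 17 neuronal genes tested, 6 rose and 7 fell (4 with the 1 CPM filter), 5 of the rises being 2-fold or more, and 21 of the 38 in the list were too low to be tested. SYP, synaptophysin, rose from 5.16 and 5.41 CPM to 15.2 and 15.4 CPM (1.53 ± 0.12), STMN3 fell from 211 and 220.1 CPM to 77.9 and 70.2 CPM (log2 fold change −1.54 ± 0.06, adjusted p = 8.44e-14), and the calcium channel gene CACNA1H went from 6.05 and 4.52 CPM to 0.05 and 0.0519 CPM, the treated levels being about 1 count a library. B-lineage genes that T-ALL cells express also fell, 5 of 7 tested (3 with the 1 CPM filter). IGLL1, the surrogate light chain, fell from 151 and 156 CPM to 51 and 47 CPM (log2 fold change −1.65 ± 0.06, adjusted p = 2.34e-14), and BLK, a kinase of the SRC family, fell from 79.3 and 81 CPM to 44.1 and 45 CPM (−0.85 ± 0.06). IGLL1 has related copies, so its reads may be shared. The summed level of the 14 B-lineage markers was 249 and 256 CPM with DMSO and 104 and 102 CPM with ACBI-1, mostly IGLL1 and BLK, with MS4A1, PAX5 and CD22 at 0. Of stromal and epithelial markers 6 of 8 tested fell, or 2 without DMSO replicate 2, the library in which COL1A1 was highest. VIM, which took most of their summed CPM, fell from 301 and 306 CPM to 168 and 156 CPM (log2 fold change −0.90 ± 0.06, adjusted p = 9.55e-11).

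Calls were fewer among genes at low levels. In the quintile of genes with the lowest mean CPM 5.90% rose and 18.7% fell, and in the quintile with the highest 30.5% rose and 24.8% fell. By length of the gene's span, rises ran from 18.4% in the shortest quintile to 25.7% in the longest, and falls from 28.0% to 28.4%. Protein-coding genes rose in 22.8% and fell in 27.0% of cases, lincRNA genes in 11.1% and 18.4%, and antisense genes in 11.7% and 10.7%. These shares describe the calls, and low counts make a call less likely at a given fold. In the promoter windows, CCGGAAG, the core bound by ETS factors, was in 17.5% of all windows, in 9.08% of windows of genes that fell 2-fold or more and in 6.57% of those that rose 2-fold or more. CCAAT was in 26.5% and 25.9% of these, against 34.8% of all windows, and the RUNX letters TGTGGTT were in 4.42% and 3.65%, against 3.29%.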

How the data were processed

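RNA sequencing (strand-specific, paired-end) measured total RNA of MOLT-4 cells, 2 libraries with 100 nM ACBI-1 and 2 with DMSO for 8 h, and of DND-41 in the same design. The values are the authors' deposited raw counts per gene. Per the submitters' processing notes, STAR 2.5.2a, featureCounts, DESeq2 1.12.4 and the build hg19 were used, while the sources used here give neither the gene annotation nor the strand setting of the counting. If strand was ignored, overlapping antisense genes cannot be told apart. The authors' deposited table of log2 fold changes and adjusted p-values was used only to compare directions.

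Counts were filtered with filterByExpr (minimum 10), scaled by TMM and tested with edgeR's quasi-likelihood test (edgeR 4.0.16, limma 3.58.1, R 4.3.3), with Benjamini-Hochberg adjustment over all genes tested. The line difference is the interaction term of a model with line, treatment and both, fitted to the 8 libraries. Alternatives were DESeq2 1.42.0, RLE size factors, library size alone, no filter, a filter of 1 CPM in every library, a replicate block, 1 fit of all 8 libraries, a threshold of 0.01 and each library left out. Leaving out mitochondrially encoded genes, or both replicate 2 libraries of MOLT-4, was chosen after seeing the data. The latter kept no replicate within a MOLT-4 treatment, so its calls rest on the spread between DND-41 libraries. On simulated counts of the MOLT-4 comparison, 14239 genes of which 50 were changed at each size, edgeR recovered 72, 84, 98 and 100% of genes changed by 0.5, 1.0, 1.5 and 2.0 on the log2 scale, and 4.84% of its calls were false. The changed genes were drawn from those at about 1 CPM or more with DMSO, so recovery at lower levels was not measured. Far fewer genes were changed in the simulation than were called in the data. Python 3.11.15, pandas 2.3.3 and matplotlib 3.10.9 made tables and plots.

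The gene lists and the comparison were chosen with earlier results of these data known. Named genes are a fixed set of T-ALL regulators, the 15 largest rises and falls at a mean of 5 CPM or more, up to 3 rises and 3 falls per list by adjusted p, genes crossing from 5 CPM to 1 CPM, the 8 largest differences in CPM each way and the 6 largest line differences each way. All but the fixed set and the list members leave out clone, LOC, LINC, antisense, small RNA and pseudogene names. Other list members, such as pathway steps without a rank in this rule, were added after their values were seen. Promoter windows and gene names came from RefSeq (GRCh38.p14) and gene types and spans from GENCODE 29, matched by symbol or identifier, and 384 of 14239 tested identifiers were not in GENCODE 29. Some members of the lists are counted but not reported by name here.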

Additional observations from a re-analysis of the deposited data

Results flagged for a closer look

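The response to ACBI-1 differed between MOLT-4 and DND-41 for these genes by the edgeR interaction test, given as the log2 fold change in MOLT-4 minus that in DND-41. Among the fixed regulators SMARCA2 differed by 0.35 ± 0.11, adjusted p = 0.0346, MYB by 0.78 ± 0.09, adjusted p = 4.6e-06, MYC by 0.72 ± 0.08, adjusted p = 5.38e-06, NOTCH1 by −1.36 ± 0.10, adjusted p = 4.19e-08, NOTCH3 by −1.21 ± 0.20, adjusted p = 0.000281 and HES1 by −1.97 ± 0.11, adjusted p = 9.47e-10. NOTCH3 was at 472 and 498 CPM with DMSO and 82.2 and 95.9 CPM with ACBI-1 in DND-41, so it was lower with ACBI-1 in both lines.

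Among the largest changes TRIB1 differed by 2.56 ± 0.38, adjusted p = 0.000115, with 1.09 and 1.45 CPM (DMSO) and 1.96 and 2.01 CPM (ACBI-1) in DND-41. SEMA7A differed by −4.64 ± 0.22, adjusted p = 1.08e-10, with 67.5 and 69.9 CPM and 53.1 and 60.0 CPM in DND-41. FGFRL1 differed by −4.80 ± 0.37, adjusted p = 5.98e-08, with 0.854 and 1.26 CPM and 1.1 and 1.23 CPM in DND-41. DDIT4 differed by −3.17 ± 0.15, adjusted p = 1.08e-10, moving down in MOLT-4 and up in DND-41.

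The remaining differences rest on genes at less than 1 CPM in every DND-41 library, several of them at 0 to 3 counts, so the fitted values depend on the model's prior count and are no bound. The largest DND-41 level among them was 0.435 CPM, in SGMS1. TOX2 differed by −3.57 ± 1.06, adjusted p = 0.031, ARHGAP32 by 4.94 ± 1.38, adjusted p = 0.0228, DAB2IP by 4.34 ± 1.36, adjusted p = 0.0422, SLC30A4 by 3.59 ± 1.05, adjusted p = 0.0289, MLK4 by 2.72 ± 0.78, adjusted p = 0.0258, SGMS1 by 2.38 ± 0.61, adjusted p = 0.0125, GPR3 by −5.12 ± 1.65, adjusted p = 0.0493 and LLGL2 by −4.93 ± 1.06, adjusted p = 0.00364. In MOLT-4 DAB2IP, a RAS GTPase-activating protein, fell from 118 and 119 CPM to 64 and 70.4 CPM (−0.82 ± 0.06), and ARHGAP32 rose from 52 and 48.9 CPM to 78.8 and 73.7 CPM (0.60 ± 0.06).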

How the results depend on the processing

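For MOLT-4, 2948 higher genes became 1781 with library size alone, 1765 with DESeq2 and 1357 without both replicate 2 libraries, and 3477 lower genes became 2267 with DESeq2 and 2232 without both replicate 2 libraries. Rises of 2-fold or more numbered 143 with the 1 CPM filter and 179 with DESeq2, and such falls 651 with that filter, which tests fewer genes. Leaving out 1 library gave 2436 to 2912 higher, 2979 to 3388 lower, 238 to 297 higher and 1062 to 1258 lower by 2-fold or more. Line differences, 1112 positive and 956 negative, became 499 positive with library size alone, 669 positive with DESeq2, 619 positive and 559 negative at 0.01, and 699 to 1207 positive and 621 to 989 negative with 1 library left out. The positive count was 699 without MOLT-4 DMSO replicate 2 and 730 without DND-41 DMSO replicate 2, and the negative count was 621 without MOLT-4 ACBI-1 replicate 1 and 634 without DND-41 DMSO replicate 1. With library size alone 1411 line differences were negative, and without mitochondrially encoded genes 944 were positive and 1109 negative. The cause was not tested.

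With the replicate block the counts were 3217 higher, 3703 lower, 287 and 1221 by 2-fold or more, and 1398 and 1181 line differences. The same-numbered libraries share only a number in the labels, and their deviations correlated at 0.23 across genes.

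With 1 library left out, signs turned for COL1A1 (−12.14 to 1.35) and FN1 (−5.99 to 2.32), which were positive without DMSO replicate 2. The lowest COL1A1 value rests on a group at 0 counts and is no bound. Signs also turned among genes not called, for ATF4 (−0.031 to 0.075), CDK1 (−0.035 to 0.079), CD3E (−0.14 to 0.036) and RUNX1 (−0.15 to 0.0016). With library size alone ATF4 was at −0.062, CDK1 at −0.064 and CD3D at −0.034, and without both replicate 2 libraries CDK1 was at −0.032 and MT-CO3 at −0.081. Depth limits changes at low levels, since 3 counts are about 0.149 CPM.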
